A study of Mus musculus with 132 samples.

Results

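The genes that copy DNA and divide the cell were followed in single cells of mouse embryos at the 8-cell stage (embryonic day 2.5) and the 32-cell stage (embryonic day 3.5). The set held 60 of the 32245 genes in the deposited table and was chosen by gene name: 22 genes of DNA replication, 14 of G1/S control and 24 of mitosis, which were kept apart throughout. Embryos of C57BL/6NCrl x DBA/2NHsd F1 females mated with F1 males of the same cross had been cultured from the 2-cell stage in medium holding either a miR-381-3p mimic, a synthetic double of that microRNA, or a scrambled control mimic at the same concentration. The sequenced 8-cell embryos are described as treated at 10 µM and the 32-cell embryos at 5 µM, so stage and dose cannot be told apart, and neither can a difference between the stages in the mimic's effect and one between the doses. Smart-seq2 libraries, which read polyadenylated RNA over the length of transcripts, were made from 30 control and 24 mimic cells at the 8-cell stage and from 39 control and 39 mimic cells at the 32-cell stage, from 3 to 5 embryos per group. The labels do not give the embryo of a cell, so each group is 1 sample, no test between groups was possible, and cells of a group may be sisters. The mimic was added to the medium and not injected into chosen cells, and how much of it each cell took up was not measured here.

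A dividing cell licenses its origins in G1, when CDC6 and CDT1 load the MCM helicase that geminin later keeps from reloading, and fires them in S phase once cyclin E and cyclin A with CDK2 have acted. Cyclin B with CDK1 then drives mitosis, the spindle checkpoint holds the cell until every chromosome is attached, and the anaphase-promoting complex (APC/C) with CDC20 ends it by destroying cyclin B. The cleavage divisions of the early embryo run with short gap phases and at first largely on RNA and protein laid down in the oocyte. MicroRNAs lower the RNA or the translation of transcripts that pair with their seed, bases 2 to 8. The mature mouse miR-381-3p lies at chr12:109726870-109726891 (plus strand, GRCm38.p6, sequence from RefSeq) and is shown here with its seed in capitals, since the sites described further on are its complement.

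miR-381-3p: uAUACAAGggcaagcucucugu

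Levels are counts per 1000000 non-mitochondrial counts (CPM) of all cells of a group together, with an exact Poisson 95% interval. Since no molecular identifiers were read, 2 reads may stem from 1 molecule, and these intervals reflect counting error alone, and neither cell-to-cell nor embryo-to-embryo spread. Changes are given as log2 of CPM + 1 in the one group less that in the other, and a gene was called past the fold when it was at 20 CPM or more in either group and its log2 change was 1 or more in size. Total counts ranged from 544866 to 3461022 per cell, and cells held 3243 to 8983 genes with a count. A gene with no count in a whole group lay under 0.0527 to 0.0971 CPM, the level of 3 counts. All 22 replication genes and all 24 mitosis genes reached 20 CPM in at least 1 group, as did 10 of the 14 genes of G1/S control. The exceptions were the E2F repressors E2f7 (0.218 to 18.2 CPM) and E2f8 (4.56 to 13.8 CPM), the D-type cyclin Ccnd2 and the CDK inhibitor Cdkn1c. Ccnd2 had no count in any 32-cell control cell and 5.69 to 15.9 CPM in the other groups. Cdkn1c had counts in 1 to 3 cells per group and stayed at 0.826 CPM or less.

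Some measures of the libraries moved with the groups. Each of the 39 control cells at the 32-cell stage had more counts of 4 Y-linked genes than of Xist, the RNA of the silent X chromosome, while each of the 39 mimic cells had more Xist, so treatment and this difference cannot be told apart at the 32-cell stage, and the stages differ in it too. At the 8-cell stage 23 of 30 control and 14 of 24 mimic cells had more Xist. The summed level of 9 oocyte genes was 114.7 CPM in 8-cell control cells, 70.75 CPM in 8-cell mimic cells, 0.844 CPM in 32-cell control cells and 4.11 CPM in 32-cell mimic cells. Genes of cumulus and granulosa cells, the follicle cells around the oocyte, summed to 0.657 CPM or less in every group, with 7 of 9 at 0 in each. In bulk sums over cells, fewer cells expressing a gene and less RNA per cell cannot be told apart, so the number of cells with a count is given beside the levels.

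The promoters of the replication and the mitosis genes differ in the words they hold, which is background to the groups used here. E2F factors bind words such as TTTCCCGC, TTTCGCGC, TTTGGCGC and TTTGGCGG, and the cell cycle homology region (CHR) of late genes, TTTGAA or TTCGAA, stands near CCAAT boxes. RefSeq promoters (GRCm38.p6, 250 bases before to 50 after the start) were held for 46 of the 60 genes, and the words were searched on both strands. An E2F word was found in 9 of 17 replication genes, 3 of 10 genes of G1/S control and 1 of 19 mitosis genes, and in 2.7% of all 27025 genes with a promoter in the table. A CHR word was found in 4 of 17, 1 of 10 and 15 of 19, and in 21.7% of all genes, and CCAAT in 12 of 17, 6 of 10 and 16 of 19, and in 41.1% of all. These matches describe the letters only. The 250 bases before the start are printed for 6 genes whose levels are described further on, with E2F, CHR and CCAAT words in capitals on whichever strand they lie. In Mcm6 an E2F word of each strand overlap.

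Mcm6, chr1:128359706-128359955, minus strand: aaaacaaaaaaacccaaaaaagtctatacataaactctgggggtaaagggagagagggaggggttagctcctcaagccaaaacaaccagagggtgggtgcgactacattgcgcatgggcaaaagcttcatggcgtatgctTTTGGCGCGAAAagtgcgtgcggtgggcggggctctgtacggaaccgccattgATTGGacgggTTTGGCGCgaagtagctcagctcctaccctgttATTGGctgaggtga

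Cdc6, chr11:98907901-98908150, plus strand: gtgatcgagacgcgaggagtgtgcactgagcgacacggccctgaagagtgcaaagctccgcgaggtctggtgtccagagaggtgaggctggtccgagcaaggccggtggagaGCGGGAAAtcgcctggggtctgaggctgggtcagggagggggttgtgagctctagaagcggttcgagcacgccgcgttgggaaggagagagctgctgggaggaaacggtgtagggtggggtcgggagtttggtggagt

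Cdk1, chr10:69352913-69353162, minus strand: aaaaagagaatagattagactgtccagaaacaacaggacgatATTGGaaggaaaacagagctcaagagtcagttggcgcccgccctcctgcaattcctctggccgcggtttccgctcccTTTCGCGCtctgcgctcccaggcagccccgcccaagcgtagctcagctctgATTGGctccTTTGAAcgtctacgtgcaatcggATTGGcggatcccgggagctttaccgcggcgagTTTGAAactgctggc

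Ube2c, chr2:164769679-164769928, plus strand: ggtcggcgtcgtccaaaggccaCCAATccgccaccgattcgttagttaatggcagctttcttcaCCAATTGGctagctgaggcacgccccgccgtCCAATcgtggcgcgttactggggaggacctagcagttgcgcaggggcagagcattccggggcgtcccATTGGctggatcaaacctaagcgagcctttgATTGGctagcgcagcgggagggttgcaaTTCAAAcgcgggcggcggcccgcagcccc

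Ccnb1, chr13:100786487-100786736, minus strand: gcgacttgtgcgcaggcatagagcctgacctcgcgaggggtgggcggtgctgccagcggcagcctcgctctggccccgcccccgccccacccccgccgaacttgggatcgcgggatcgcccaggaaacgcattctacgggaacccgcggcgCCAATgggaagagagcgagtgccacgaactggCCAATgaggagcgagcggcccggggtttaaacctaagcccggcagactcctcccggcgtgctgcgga

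Ccnb2, chr9:70421555-70421804, minus strand: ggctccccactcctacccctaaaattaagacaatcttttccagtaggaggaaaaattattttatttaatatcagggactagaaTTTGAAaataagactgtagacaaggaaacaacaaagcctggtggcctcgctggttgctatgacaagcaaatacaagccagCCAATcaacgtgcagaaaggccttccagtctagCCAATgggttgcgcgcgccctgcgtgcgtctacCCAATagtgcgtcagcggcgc

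Mcm6, which codes for a subunit of the replicative helicase, held 3 E2F words and no CHR word, and Cdc6, the loader of that helicase, held 1 E2F word. Cdk1, the mitotic kinase, held 1 E2F and 2 CHR words. Ube2c, the ubiquitin-conjugating enzyme of the APC/C, held 1 CHR word and 6 CCAAT boxes. The B-type cyclins differed: Ccnb2 held 2 CHR words, 1 of them after the start, and 3 CCAAT boxes, whereas Ccnb1 held 2 CCAAT boxes and no CHR word in this window.

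Compared per kilobase of exon, 1 gene led the replication genes and 1 the mitosis genes in all 4 groups. Rrm2, the small subunit of ribonucleotide reductase, which makes the building blocks of DNA, led the replication genes with 336.1 CPM per kb in 8-cell control, 322.6 in 8-cell mimic, 534.3 in 32-cell control and 493.6 in 32-cell mimic cells. Geminin (Gmnn) followed at the 8-cell stage, with 183.5 and 189.3 CPM per kb. Cdc20, the activator of the APC/C, led the mitosis genes with 660.9, 689, 243.4 and 354.9 CPM per kb in the same order of groups. In CPM, without regard to length, Ccnb1 was above it in every group. In 32-cell control cells Ccnb2 followed closely with 238.4 CPM per kb, and it was ahead in the 24 cells of the first run of title numbers. Among genes of G1/S control the leader changed with the stage. It was Ccne1, cyclin E1, at the 8-cell stage, with 194.8 CPM per kb in control and 122.7 in mimic cells. At the 32-cell stage it was Cdk4, the kinase of D-type cyclins, with 109.8 and 91.07 CPM per kb.

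The summed levels of the 3 lists in single cells moved apart between the stages. The 24 mitosis genes together had a median of 10520 CPM per cell in 8-cell control cells (lowest 7133, highest 12930) and 5783 CPM in 32-cell control cells (3863 to 8537). In mimic cells the medians were 8655 CPM (5605 to 12890) at the 8-cell stage and 6101 CPM (2785 to 8789) at the 32-cell stage. The sum of these 24 mitosis genes was thus lower at the 32-cell stage under both treatments, with some overlap of cells. Genes with many counts weigh most in such a sum. Among mitosis genes outside the 24, 37 of 63 at 20 CPM had a log2 change above 0 in control embryos (median 0.38). In mimic embryos 41 of 64 did (median 0.48), beside a median of 0.20 over all genes under both treatments. The 22 replication genes had medians of 4967 CPM in 8-cell control, 3941 in 8-cell mimic, 6319 in 32-cell control and 4720 in 32-cell mimic cells. They were highest in 32-cell control cells, where the lowest cell had 4703 CPM. The 14 genes of G1/S control had medians of 1417, 1357 and 1374 CPM in 8-cell control, 8-cell mimic and 32-cell control cells and of 691.6 CPM in 32-cell mimic cells, whose cells ran from 391.5 to 1421 CPM.

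**Figure D1:**
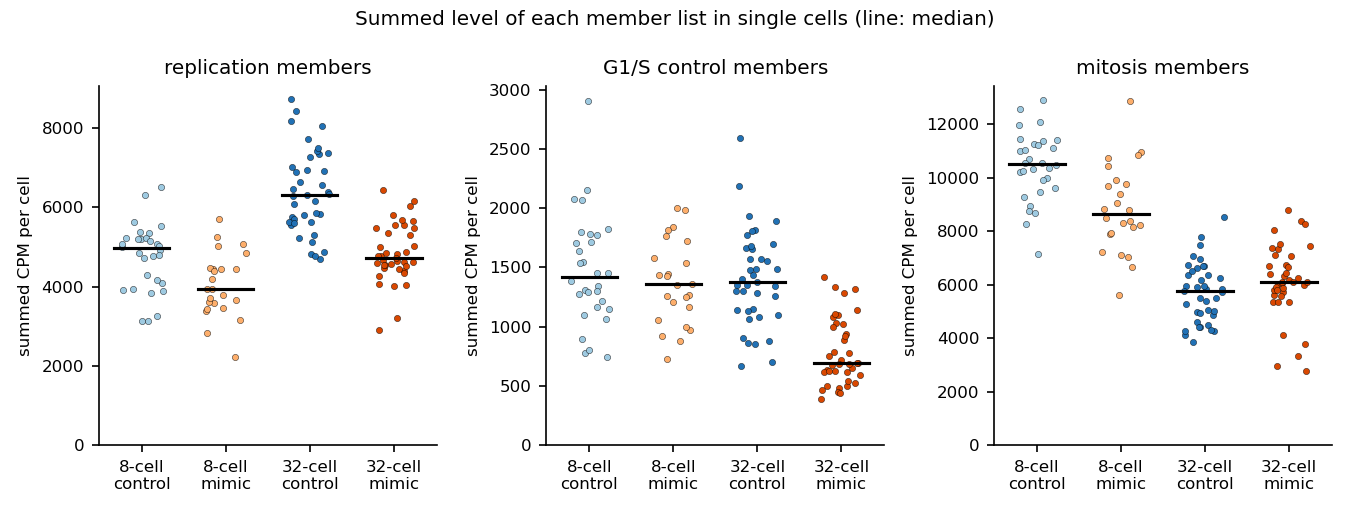
Summed CPM per cell of the replication, G1/S control and mitosis genes (vertical axis, linear from 0) in the 4 groups of cells, each point 1 cell and each line the group's median. The mitosis sum is lower in 32-cell than in 8-cell cells (medians 5783 against 10520 CPM in control cells), and the G1/S sum is lowest in 32-cell mimic cells (median 691.6 CPM).

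The first comparison set 32-cell against 8-cell cells of control embryos, across the 2 divisions in which the embryo compacts and separates an inner cell mass from an outer layer, and from 10 µM to 5 µM of the control mimic. The leading mitotic cyclins Ccnb1 and Ccna2, Cdk1, Cdc20 and Ube2c were lower in 32-cell cells, whereas Ccnb2, the checkpoint kinase gene Bub1b and several genes of the replication fork were higher. Of the 55 genes at 20 CPM or more, 12 were higher past the fold, where 30% of all 7469 genes at that level were, and 12 were lower, where 20.1% of all genes were. Replication genes had 6 higher and 2 lower of 22 (median log2 change 0.30), genes of G1/S control 3 higher and 3 lower of 9 (median 0.05) and mitosis genes 3 higher and 7 lower of 24 (median -0.47), beside a median of 0.20 over all genes. The G1/S median had no steady sign: it was -0.98 against 2 of the 8-cell cells alone, -0.44 without the first run of 32-cell cells and 0.54 without the other.

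In mimic embryos the same comparison, on separate cells, gave 7 of 54 genes higher, where 29.1% of all 7594 genes were, and 13 lower, where 18.8% were. Replication genes had 5 higher and 5 lower of 22 (median 0.30), genes of G1/S control 0 higher and 5 lower of 8 (median -1.23) and mitosis genes 2 higher and 3 lower of 24 (median -0.04, and 0.32 against 8-cell cells with more Y-linked counts), beside a median of 0.20 over all genes. The G1/S median was -0.61 against 8-cell cells with more Y-linked counts, -0.66 with a limit of 5 CPM and -0.55 with none. Of the 53 genes at 20 CPM or more in both comparisons, 42 (79.2%) had the same direction, where 83.4% of all genes did. Rfc2, Fen1, Lig1, Ccnb2 and Cenpf were higher past the fold under both treatments, and Cdc6, Cdc45, Ccnd1, Ccne1, Cdc25a, Ccna2, Ccnb1 and Cdc25b lower. These 5 and 8 of 53 (9.43% and 15.1%) stand beside 20.9% and 13% of all 6982 genes, and 0 of the 53 and 0.53% of all genes were past the fold in opposite directions. Some calls rested on 1 run of cells, told apart by the numbers in their titles. In control embryos Ccne2 (0.55), Cdc20 (-0.72) and Fen1 (0.83) fell short of the fold when 28 of the 30 8-cell cells were left out, Ccnd3 (0.92) and Fen1 (0.98) without the first 32-cell run and Cdc45 (-0.84) without the other. In mimic embryos Cdc25a (-0.84), Gmnn (-0.94), Orc1 (-0.78) and Mcm5 (0.94) did without the first 32-cell run, Cdt1 (-0.84) without the next and Mcm5 (0.95) without the third. Other changes stayed past the fold but moved by over 1.5 times. Without the first control run of 32-cell cells Gins2 was at 1.24 and Ccnd1 at -3.73, and without the third mimic run Ccnd1 was at -2.67 and Cdc25b at -2.92. Against the 2 remaining 8-cell control cells Gins2 was at 1.26, Lig1 at 4.94, Ccnd3 at 2.60, Cenpf at 3.81, Cdc25a at -1.80 and Cdc25b at -1.89.

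The stages were also compared within the kind of cell found at the 32-cell stage. Against the 7 8-cell control cells with more Y-linked counts, 10 of 56 genes were higher past the fold, where 32.2% of all genes were, and 15 were lower, where 22.7% were. Fen1 (0.92), Rrm1 (0.78) and Ccnd3 (0.49) then fell short of the fold. Plk1 (-1.24), Aurkb (-1.68), Birc5 (1.04) and Ccnd2, which had 23.9 CPM in these 7 cells, were past it. Ccne1 was at -3.12, Cdc45 at -1.78 and Lig1 at 2.79. Against the 14 8-cell mimic cells with more Xist, 7 of 55 were higher, where 29.3% of all genes were, and 14 were lower, where 19.3% were. Gmnn (-0.99) and Fen1 (0.88) fell short there, and Rrm1 (1.14), Kif20b (-1.29) and Ccnd2 (-1.87) were past the fold. Fen1, counted above as higher under both treatments, was thus past the fold under neither in this comparison.

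**Figure D2:**
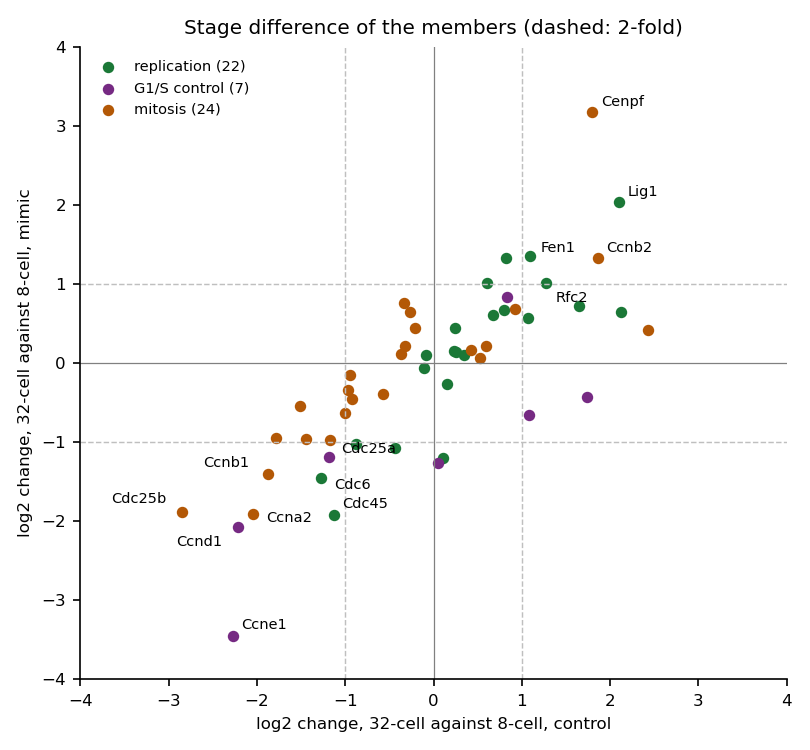
Log2 change from 8-cell to 32-cell cells in control embryos (horizontal) and mimic embryos (vertical) for the 53 genes at 20 CPM or more in both comparisons, coloured by list; dashed lines mark the 2-fold limit. Named points lie past it in both comparisons, from Ccne1 (-2.27 and -3.45) at the lower left to Cenpf (1.80 and 3.18) at the upper right.

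Among replication genes, Cdc6, Cdt1, Gmnn and Orc1, which act in licensing, were all lower past the fold at the 32-cell stage in mimic embryos, though not in every subset of cells. In control embryos Cdc6 was the only one of them past it. Cdc6 had 503.5 CPM in 8-cell control, 302 in 8-cell mimic, 208.2 in 32-cell control and 109.5 in 32-cell mimic cells, and was past the fold lower under both treatments (log2 changes -1.27 and -1.46). All 30 of the 8-cell control cells had a count of it, from 66.76 to 1120 CPM. Cdt1, its partner in loading the helicase, had 298.7, 300.3, 161.9 and 147.8 CPM in the same order of groups, and Gmnn, the inhibitor of Cdt1, 268.8, 277.4, 197.9 and 131.7 CPM. Both were lower at the 32-cell stage, past the fold in mimic embryos alone (-1.02 and -1.07), where control embryos had -0.88 and -0.44. Orc1, the largest subunit of the origin recognition complex, had 81.18 and 87.64 CPM in 8-cell and 32-cell control cells and 49.92 CPM in 32-cell mimic cells, whose change of -1.20 from the 8-cell stage was past the fold. The 8-cell mimic cells with more Xist had 152.5 CPM and those with more Y-linked counts 45.59 CPM, and against the latter the change was 0.13.

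The 6 subunits of the helicase ring were level or higher at the 32-cell stage. Mcm4 stood out in control embryos. It had 187.3 CPM (interval 182.9 to 191.8) in 8-cell control cells, with counts in 26 of 30, and 590.5 CPM (584.2 to 596.9) in 32-cell control cells, with counts in all 39, a log2 change of 1.65. In mimic embryos it had 148.9 CPM at the 8-cell stage and 245.3 CPM at the 32-cell stage, a change of 0.72. Mcm5 changed by 0.61 in control and 1.01 in mimic embryos, and Mcm7 by 0.82 and 1.33. Mcm2 (0.24 and 0.44), Mcm3 (0.15 and -0.26) and Mcm6 (0.25 and 0.14) stayed within 0.5 of 0. The stage change of the ring's subunits in control embryos thus ran from 0.15 for Mcm3 to 1.65 for Mcm4.

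Of the genes that turn the loaded ring into a working helicase, Cdc45 and Gins2 went opposite ways in control embryos. Cdc45 had 197 CPM in 8-cell control, 143.1 in 8-cell mimic, 89.73 in 32-cell control and 37.15 in 32-cell mimic cells, lower by -1.13 and -1.92. Gins2, of the GINS complex that travels with it, had 15.9 CPM in 8-cell and 72.68 CPM in 32-cell control cells, higher by 2.12, and 23.07 and 36.72 CPM in mimic cells, higher by 0.65. The number of cells with a count of Gins2 went from 18 of 30 to 36 of 39 in control embryos. Mcm10, which helps the helicase start, had 204.1 to 355.4 CPM over the groups.

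Fork enzymes that finish the lagging strand were higher at the 32-cell stage. Lig1, the ligase that joins Okazaki fragments (chr7:13277283-13311433, plus strand), had 44.13 CPM in 8-cell control cells (lowest cell 0, median 8.98, highest 260.7) and 191.8 CPM in 32-cell control cells (42.44, 176.5 and 413). In mimic embryos it had 30.41 CPM at the 8-cell and 127.8 CPM at the 32-cell stage, and the changes were 2.10 and 2.04. Fen1, the nuclease that trims the same fragments, changed by 1.09 and 1.35, and Rfc2, a subunit of the loader of the PCNA clamp, by 1.27 and 1.01. Pcna itself, the clamp, changed by 0.23 and 0.15, with 114.8 to 147.6 CPM over the 4 groups. Of the polymerases, Pold1 had changes of 0.80 and 0.67, Pole of -0.09 and 0.10, and the primase gene Prim1 of -0.11 and -0.06. Of the subunits of ribonucleotide reductase, with all cells compared, Rrm1 was higher past the fold in control embryos alone and Rrm2 under neither treatment. Rrm1 changed by 1.07 in control and 0.57 in mimic embryos and Rrm2 by 0.67 and 0.61.

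In G1/S control, the cyclin E genes went opposite ways between the stages in control embryos. Ccne1 (chr7:38097984-38107534, minus strand) had 518.6 CPM (511.3 to 526) in 8-cell control cells, with counts in 30 of 30, and 106.8 CPM (104.1 to 109.5) in 32-cell control cells, with counts in 32 of 39. In mimic embryos it had 326.7 CPM and 29.09 CPM, with counts in 23 of 24 and 15 of 39 cells. The changes were -2.27 and -3.45. Ccne2, cyclin E2, had 20.88 CPM in 8-cell and 72.06 CPM in 32-cell control cells, higher by 1.74, but 43.93 and 32.25 CPM in mimic cells, lower by -0.43. Ccne1 thus stayed above Ccne2 in control cells, per kilobase too, with 40.11 against 20.62 CPM per kb at the 32-cell stage.

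D-type cyclins differed as well. Ccnd1, cyclin D1, had 35.96 and 31.74 CPM in 8-cell control and mimic cells and 7.01 and 6.74 CPM in 32-cell cells, lower by -2.21 and -2.08. Ccnd3, cyclin D3, was the D-type cyclin with the highest level in every group. It was higher by 1.08 in control embryos (190.7 to 404.6 CPM) and lower by -0.66 in mimic embryos (287.2 to 180.9 CPM). Cdk2, the partner of cyclin E, had 256.3 and 264.8 CPM in 8-cell and 32-cell control cells but 294.7 and 122 CPM in mimic cells, a change of -1.26. Cdk4 changed by 0.83 under both treatments, and Cdk6, a second partner of D-type cyclins, had 5.52 to 31.38 CPM. Cdc25a, the phosphatase that activates CDK2, was lower by -1.19 under both, though in mimic embryos by -0.44 against 8-cell cells with more Y-linked counts. E2f1, an activating E2F factor, had 23.68, 8.90, 15 and 6.39 CPM in 8-cell control, 8-cell mimic, 32-cell control and 32-cell mimic cells.

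Cdkn1b, the CDK inhibitor p27 (chr6:134920401-134925513, plus strand), went from almost no counts to a low level. It had 0.354 CPM (0.188 to 0.605) in 8-cell control cells, with counts in 3 of 30, and 29.81 CPM (28.41 to 31.26) in 32-cell control cells, with counts in 36 of 39. The log2 change of 4.51 was the largest of all 60 genes and rests on a level near the pseudocount of 1 CPM at the 8-cell stage. With a pseudocount of 5 CPM it was 2.70. In mimic embryos it had 1.49 CPM in 5 of 24 cells and 10.8 CPM in 30 of 39 cells.

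Among mitosis genes, the cyclins that pair with CDK1 split. Ccnb1, cyclin B1 (chr13:100778650-100786570, minus strand), was the gene of the 60 with the highest CPM in 8-cell cells. It had 2658 CPM (2642 to 2675) in 8-cell control cells, from 1675 to 3722 CPM over the 30 cells, and 720.8 CPM (713.8 to 727.8) in 32-cell control cells, from 206.6 to 1566 CPM over the 39. No cell of one stage overlapped the other in control embryos, where 1.03% of all genes at 20 CPM had no overlap. It was the 1 such case among the 60 genes in the 4 comparisons, and of all genes 0.474% had no overlap between the stages in mimic embryos, and 0% and 0.0274% between mimic and control cells at the 8-cell and the 32-cell stage. In mimic embryos it had 2147 and 815.5 CPM, and cells overlapped. The changes were -1.88 and -1.40. Ccna2, cyclin A2, had 1330 and 1280 CPM at the 8-cell stage and 322.5 and 339.9 CPM at the 32-cell stage in control and mimic cells. Ccnb2, cyclin B2 (chr9:70407692-70421547, minus strand), went the other way. It had 99.71 CPM in 8-cell control cells (lowest cell 0, median 85.88, highest 297.1) and 365 CPM in 32-cell control cells (60.47, 328 and 690.7), and 108.1 and 273.3 CPM in mimic cells, with changes of 1.86 and 1.33. Per kilobase of all annotated exons, Ccnb1 had 630.4 and Ccnb2 65.13 CPM per kb in 8-cell control cells. In 32-cell control cells they had 170.9 and 238.4 CPM per kb. Their order thus turned by this measure, which takes 4217 bases for Ccnb1 and 1531 for Ccnb2, though in CPM Ccnb1 stayed above Ccnb2. In 32-cell mimic cells Ccnb1 had 193.4 and Ccnb2 178.5 CPM per kb, and the order did not turn.

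The kinase and the enzymes of mitotic exit were lower with Ccnb1 in control embryos. Cdk1 had 528.1 CPM in 8-cell and 184.5 CPM in 32-cell control cells, Cdc20 1235 and 454.7 CPM and Ube2c 632.6 and 182.4 CPM, with changes of -1.51, -1.44 and -1.79. In mimic embryos their changes were -0.54, -0.96 and -0.95, short of the fold in each case. Cdc25b, a phosphatase that activates CDK1, had 46.2 CPM in 18 of 30 cells and 5.55 CPM in 7 of 39 cells of control embryos, lower by -2.85, and 60.82 and 15.76 CPM in mimic cells, lower by -1.88. Its relative Cdc25c (-0.32 and 0.22) was within 0.4 of 0. Wee1, the kinase that holds CDK1 inactive, had 56.38 and 27.77 CPM in control embryos, a change of -1.0 and just short of the fold, and -0.63 in mimic embryos. The oocyte genes given above were higher at the 8-cell stage as well, and their part in these differences was not tested.

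Other mitosis genes were higher at the 32-cell stage. Bub1b, the checkpoint protein BUBR1, had 50.44 CPM in 19 of 30 8-cell control cells and 275.3 CPM in all 39 32-cell control cells, higher by 2.43, whereas in mimic embryos it had 121.2 and 162.6 CPM, higher by 0.42. Cenpf, a kinetochore protein that gathers in G2, had 34.33 and 121.9 CPM in control and 18.34 and 173.9 CPM in mimic cells, higher by 1.80 and 3.18. Birc5, survivin, of the chromosomal passenger complex, changed by 0.92 and 0.68, and the spindle motor gene Kif11 by 0.59 and 0.22. The remaining checkpoint genes Bub1 (0.53 and 0.07), Mad2l1 (0.42 and 0.17) and Ttk (-0.21 and 0.44) were short of the fold. Short of the fold on the lower side in control embryos were Plk1 at -0.97, Aurka at -0.37, Aurkb at -0.95, Cenpe at -0.92, Tpx2 at -0.57, Top2a at -0.34 and Mki67 at -0.27. Kif20b, a motor of cytokinesis, was past the fold there, with 300.2 CPM in 8-cell and 132.8 CPM in 32-cell control cells (-1.17, and -0.98 in mimic embryos).

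**Figure D3:**
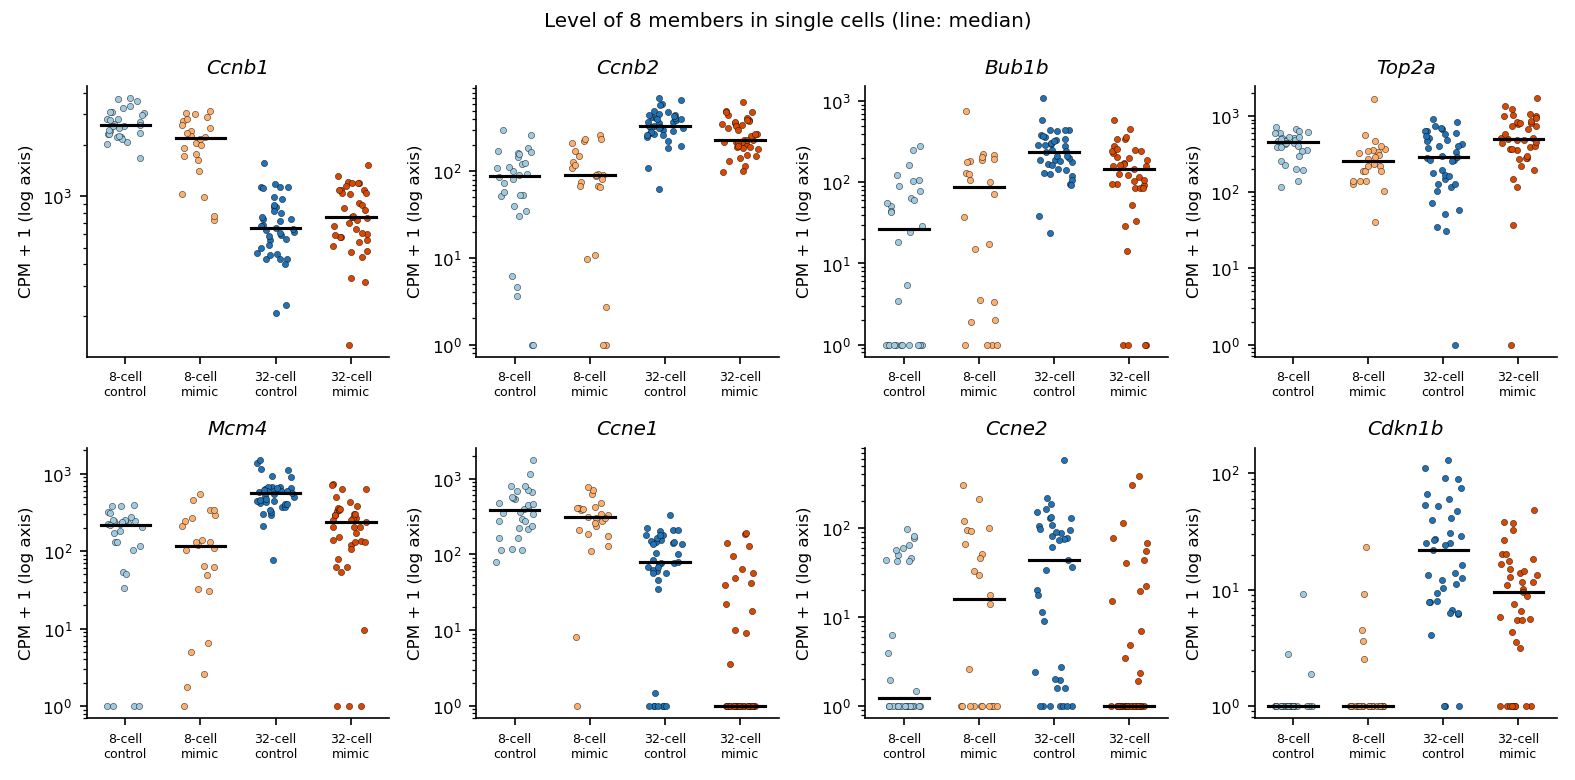
CPM plus 1 of 8 genes (vertical log axes) in every cell of the 4 groups, each point 1 cell and each line the group's median. Ccnb1 cells of the 2 stages do not overlap in control embryos (1675 to 3722 against 206.6 to 1566 CPM), and Ccne1 has no count in most 32-cell mimic cells.

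The next comparison asked what the mimic changed at the 8-cell stage. Differences were small and few: 3 of 55 genes were higher past the fold in mimic cells, where 6.96% of all 6570 genes at 20 CPM were, and 2 were lower, where 6.09% were. No replication gene was past the fold, and 15 of the 22 were below 0 (median -0.16, beside 0.03 over all genes). Of mitosis genes 16 of 24 were below 0 (median -0.35), with 1 higher and 1 lower past the fold, and genes of G1/S control had 2 higher and 1 lower of 9 (median -0.18). The mitosis median was 0.17 against 2 of the control cells alone and -0.13 in cells with more Xist, where the G1/S median was 0.09. The genes past the fold were Bub1b, Cdk6 and Ccne2, which were higher in mimic cells, and E2f1 and Mki67, which were lower.

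Bub1b had 50.44 CPM in control cells against 121.2 CPM with the mimic (log2 change 1.25), with counts in 19 of 30 and 20 of 24. A single mimic cell reached 756.2 CPM, and the median cells had 25.45 and 85.72 CPM. Cdk6 had 12.66 and 31.38 CPM (1.25) and Ccne2 20.88 and 43.93 CPM (1.04), with counts of Ccne2 in 15 of 30 and 14 of 24 cells. E2f1 had 23.68 and 8.90 CPM (-1.32), and Mki67, the proliferation antigen Ki-67, 190.4 and 89.94 CPM (-1.07). Of the next genes, Mcm6 had 439.3 and 239.7 CPM (-0.87), Cenpf 34.33 and 18.34 CPM (-0.87), Cdc6 503.5 and 302 CPM (-0.74), Plk1, polo-like kinase, 360.1 and 223.1 CPM (-0.69), Ccne1 518.6 and 326.7 CPM (-0.66) and Cdc25a 279.4 and 177.2 CPM (-0.65). Ccnd3 (0.59), Gins2 (0.51), Orc1 (0.51), Birc5 (0.40) and Cdc25b (0.39) were the next on the higher side. Cells of both groups overlapped for every gene.

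These 8-cell values depended on which cells were compared. Control cells numbered 87 and 88, set apart from the other 28 by their titles, had more Ccne2 and less Mki67, and against them alone the changes were -0.15 and 0.78, that of Bub1b was 0.93 and that of Cdk6 2.95. Within cells with more Xist than Y-linked counts (23 control, 14 mimic) 4 of 56 genes were higher and 1 lower past the fold, where 8.98% and 6.73% of all 6629 genes were. Of the 5 genes named above, Ccne2 (1.14) and Mki67 (-1.12) were past the fold there and Bub1b (0.86), Cdk6 (0.79) and E2f1 (-0.98) were not, and the other genes past it were Orc1 (1.15), Ccnd3 (1.05) and Ccnd2, all higher. Within cells with more Y-linked counts (7 control, 8 mimic) 3 of 57 were higher and 18 lower, where 17.5% and 19.7% of all 6875 genes were, so that calls were more frequent over all genes as well. There Ccne2 (1.28) and E2f1 (-1.75) were past the fold, Cdk6 had 23.16 CPM in mimic and no count in control cells, and Bub1b (0.63) and Mki67 (-0.78) fell short, so Bub1b was past the fold in neither kind of cell. Orc1 (-1.28) and Ccnd3 (-1.12) were lower here and higher in the first kind. Ccne1 is an example, with 343 CPM (control) and 331.9 CPM (mimic) in cells of the first kind and 936.2 and 246.6 CPM in those of the second.

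The same question was then asked at the 32-cell stage, at 5 µM. None of 52 genes was higher past the fold in mimic cells, where 6.87% of all 7307 genes were, and 7 were lower, where 5.36% were. Genes of G1/S control held 5 of the 7, of 7 at 20 CPM, and all 7 were below 0 (median -1.14, beside 0.01 over all genes). With the low genes of the 14 included the median was nearer 0, at -0.65 with a limit of 5 CPM and -0.46 with none, and of 13 other G1/S genes at 20 CPM none was lower past the fold (median -0.17). Replication genes held the other 2, with 19 of 22 below 0 (median -0.40). Of 44 other replication genes at 20 CPM, 25 were below 0 (median -0.08), with 1 higher and 0 lower past the fold. No mitosis gene of 23 was past the fold, and 12 were above 0 (median 0.08, from -0.10 to 0.09 when a run of cells was left out). Without the control cells of the first run of title numbers (24 of the 39 cells), 2 genes were lower past the fold, Ccne1 (-1.83) and Cdkn1b (-1.86), and Mcm4 (-0.90), Cdc45 (-0.68), Ccnd3 (-1.0), Ccne2 (-0.96) and Cdk2 (-0.63) fell short of it. Without the other control run Cdkn1b did (-0.95), without the first mimic run Ccnd3 (-0.98), Ccne2 (-0.59) and Cdk2 (-0.89), and without the third Ccne2 (-0.65). All of these values stand beside the difference in Xist and Y-linked counts between these groups, from which the treatment cannot be told apart.

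Ccne1 had the largest difference. It had 106.8 CPM in control cells (lowest cell 0, median 79.23, highest 334.1) and 29.09 CPM (27.66 to 30.58) in mimic cells (0, 0 and 191.8), a log2 change of -1.84. Counts were found in 32 of 39 control cells (82.1%, exact binomial 95% interval 66.5 to 92.5%) and 15 of 39 mimic cells (38.5%, 23.4 to 55.4%). Binomial intervals here cover the counting of cells only and take cells as independent, which sister cells of 3 to 5 embryos are not. Ccne2 had 72.06 and 32.25 CPM (-1.14), with counts in 32 and 16 of 39 cells. Cdk2, which cyclin E binds, had 264.8 and 122 CPM (-1.11), with median cells of 241.6 and 96.12 CPM. Ccne2 was not lower in every subset of the mimic cells, as given further on for runs and classes.

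Ccnd3 had 404.6 CPM in control cells (lowest cell 72.14, median 395.5, highest 1488) and 180.9 CPM in mimic cells (0, 144.5 and 673.9), a change of -1.16. Cdkn1b, the inhibitor of these kinases, was lower as well, with 29.81 and 10.8 CPM (-1.38) and counts in 36 and 30 of 39 cells. Cdc25a (-0.65) and Cdk4 (-0.27) were lower short of the fold. Of the replication genes, Mcm4 (chr16:15623897-15637400, minus strand) had 590.5 CPM (lowest cell 76.44, median 568.7, highest 1509) in control and 245.3 CPM (0, 239.3 and 745.5) in mimic cells, a change of -1.26. Cdc45 had 89.73 and 37.15 CPM (-1.25), with counts in 36 and 24 of 39 cells. Mcm6 (522 and 265.1 CPM), Gins2 (72.68 and 36.72 CPM), Cdc6 (208.2 and 109.5 CPM), Orc1 (87.64 and 49.92 CPM) and Mcm10 (355.4 and 218.6 CPM) followed, with changes from -0.97 to -0.70. Cells of the 2 groups overlapped for each of these genes.

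The ring subunits again differed from each other. Mcm4 and Mcm6 were lower in mimic cells, while Mcm5 (347.1 and 343 CPM), Mcm7 (250.5 and 240.6 CPM) and Mcm2 (372.1 and 313 CPM) had changes of -0.02, -0.06 and -0.25, and Mcm3 of -0.48. Gmnn (-0.58), Lig1 (-0.58), Pold1 (-0.43) and Rrm1 (-0.37) were on the lower side as well. Rrm2 (-0.11), Pcna (0.13), Fen1 (0.15), Rfc2 (-0.26), Cdt1 (-0.13) and Prim1 (-0.15) stayed within 0.3 of 0, and Pole, the leading-strand polymerase, had 68.74 and 90.53 CPM (0.39).

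Mitosis genes lay on both sides. Top2a, the topoisomerase that untangles sister chromatids, had 337 and 576.7 CPM (0.77), Ttk, a checkpoint kinase, 40.74 and 69.68 CPM (0.76), Cdk1 184.5 and 275.7 CPM (0.58), Cdc20 454.7 and 663 CPM (0.54), Cenpf 121.9 and 173.9 CPM (0.51), Ube2c 182.4 and 247.9 CPM (0.44) and Aurkb 65.21 and 86.85 CPM (0.41). On the lower side were Bub1b with 275.3 and 162.6 CPM (-0.76), Mad2l1 with 246.2 and 158.4 CPM (-0.63), Bub1 (-0.43) and Ccnb2 with 365 and 273.3 CPM (-0.42). The cyclins Ccnb1 (0.18) and Ccna2 (0.08), the kinases Plk1 (-0.06), Aurka (-0.05) and Wee1 (-0.06), and Birc5 (0.16), Kif11 (-0.15), Kif20b (-0.24), Tpx2 (-0.20), Mki67 (-0.15) and Cdc25c (0.11) were within 0.3 of 0, and Cenpe had 0.32. Of the checkpoint genes, Bub1b, Mad2l1 and Bub1 were thus on the lower side and Ttk on the higher. None was past the fold, and the difference between them was not tested.

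**Figure D4:**
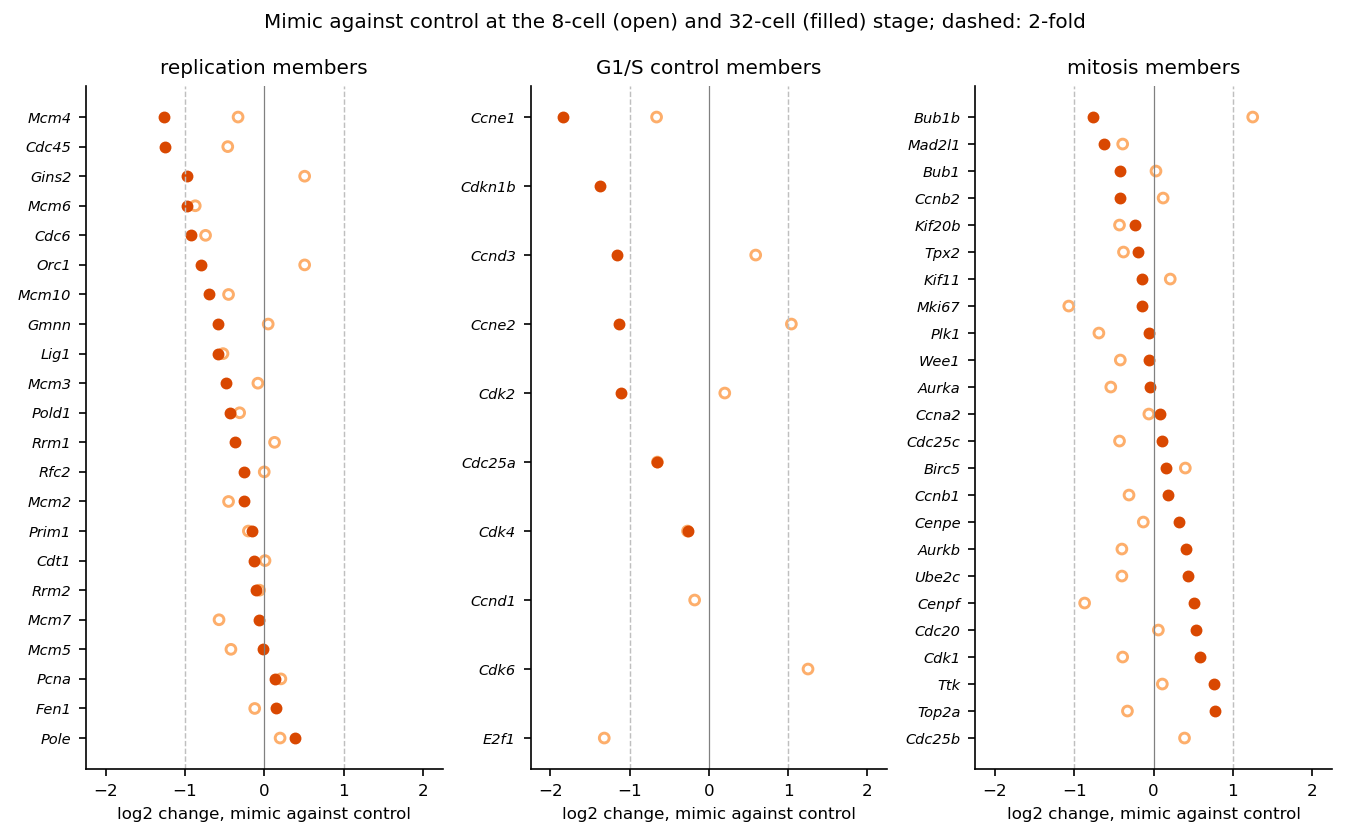
Log2 change of mimic against control cells at the 8-cell stage (open circles) and the 32-cell stage (filled circles) for each gene at 20 CPM or more, in 3 panels by list; dashed lines mark the 2-fold limit. At the 32-cell stage the G1/S genes lie to the left of 0, from Ccne1 (-1.84) to Cdk4 (-0.27), while mitosis genes spread from Bub1b (-0.76) to Top2a (0.77).

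Of the 51 genes at 20 CPM or more at both stages, 29 (56.9%) had the same direction in mimic against control cells at the 8-cell and the 32-cell stage, where 52.3% of all genes did. The stages here differ in dose as well. None of the 51 was past the fold higher or lower at both stages, where 0.673% and 0.466% of all 5796 genes were. Ccne2 was past it in opposite directions, higher at the 8-cell (1.04) and lower at the 32-cell stage (-1.14), as were 0.828% of all genes. Replication genes had the same direction in 16 of 22, with Mcm6 (-0.87 and -0.97) and Cdc6 (-0.74 and -0.92) among them.

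Titles of the cells carry numbers that fall into separate runs within a group, and the labels do not say what a run is. At the 32-cell stage there were 2 runs of control cells (24 and 15 cells) and 3 of mimic cells (18, 12 and 9). Mcm4 had 679.3 and 458.4 CPM in the control runs and 257.8, 302 and 167.9 CPM in the mimic runs. Ccne1 had 107.5 and 105.7 CPM against 16.51, 42.42 and 30.73 CPM, and Ccnd3 432.9 and 362.6 CPM against 141.6, 232.6 and 175.1 CPM. Cdc45, Cdk2 and Cdkn1b likewise had every mimic run below both control runs. Ccne2 did not, with 77.69 and 63.69 CPM against 7.27, 91.02 and 0.505 CPM. Most of its counts in mimic cells thus came from the run of 12 cells, and without that run the change was -3.79. All of these genes were picked as lower in the same cells pooled, so the order of the runs partly follows from that choice. The share of all genes with every mimic run below both control runs was not counted.

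The 32-cell embryo holds an inner cell mass (ICM), which gives the embryo proper, and the trophectoderm (TE), its outer epithelium. Cells were clustered without any of the cell cycle genes, and 2 clusters held all 78 cells of this stage. In the first, 8 of 9 ICM markers were higher and 3 of them were among its 10 leading genes, with Fn1 and Pecam1 ahead, so it is called ICM-like. In the other, 9 of 9 TE markers were higher, though none was among its 10 leading genes, which Ggta1 and Sh3d21 headed, and its cells are called TE-like. The ICM-like cluster held 25 of 39 control cells (64.1%, 47.2 to 78.8%) and 14 of 39 mimic cells (35.9%, 21.2 to 52.8%). By the mean marker levels of each cell the ICM-like share was the same in control cells and 17 of 39 (43.6%, 27.8 to 60.4%) in mimic cells, and no test of the difference in shares was possible.

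Few cell cycle genes were past the fold between the classes. In control embryos 4 of 54 genes were higher in ICM-like cells past the fold, where 11.9% of all genes were, and 2 were lower, where 10.1% were. Cdkn1b had 46.29 CPM in the 25 ICM-like and 7.77 CPM in the 14 TE-like control cells (2.43), and Wee1 42.26 and 8.38 CPM (2.21). Aurkb (1.35) and Plk1 (1.05) were higher in ICM-like cells and E2f8 (-4.13) and Ccne2 (-1.20) lower, E2f8 with counts in 2 of 25 and 10 of 14 cells. In mimic embryos 1 of 52 genes was higher in ICM-like cells, where 7.67% of all genes were, and 3 were lower, where 8.39% were. The higher gene was Ccne2 (73.76 and 12.06 CPM), and the lower ones were Cdc25b, Cdc25c and Mki67.

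Mimic and control cells were then compared within each class. Among ICM-like cells 2 of 52 genes were higher past the fold in mimic cells, where 10.7% of all genes were, and 6 were lower, where 9.55% were. Among TE-like cells 4 of 54 were higher, where 12% of all genes were, and 7 were lower, where 7.51% were. Mcm4, Cdc45 and Ccne1 were lower past the fold in both classes. These genes were already past the fold in the same cells pooled, so the classes are no separate test of them. The share of all genes lower past the fold in both classes was not counted. Mcm4 had 297 CPM in mimic and 655.3 CPM in control ICM-like cells (-1.14) and 220.1 and 503.8 CPM in TE-like cells (-1.19). Cdc45 had 39.83 and 81.36 CPM (-1.01) in the former and 35.84 and 100.9 CPM (-1.47) in the latter. Ccne1 had 25.43 and 82.38 CPM in ICM-like cells, with counts in 2 of 14 and 19 of 25, and 30.88 and 139.4 CPM in TE-like cells, with counts in 13 of 25 and 13 of 14.

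Other genes were past the fold in 1 class, and the difference between the classes was not tested. Cdkn1b was lower in ICM-like mimic cells (10.73 and 46.29 CPM, -2.01), as were Ccnd3 (127.4 and 408.2 CPM, -1.67) and Mki67 (78.23 and 175.1 CPM, -1.15), while Ttk (1.19) and Pole (1.0) were higher. Cdkn1b was not lower in TE-like mimic cells (0.43), and Ccne2 was not lower among ICM-like ones (0.67). Past the fold among TE-like cells were Ccne2 (counts in 9 of 25 mimic and 13 of 14 control cells, -3.05), Cdk2 (120.8 and 333.3 CPM, -1.46), Orc1 (39.59 and 106.2 CPM, -1.40) and Cdc6 (106.7 and 273.7 CPM, -1.35), lower with the mimic. Of the 24 mitosis genes 4 were higher past the fold there and none lower. Top2a had 587.5 and 225.8 CPM (1.38), Cdk1 275 and 120.7 CPM (1.18), Aurkb 84.87 and 34.02 CPM (1.29) and Wee1 23.56 and 8.38 CPM (1.39). The median over mitosis genes was 0.42 in TE-like and -0.21 in ICM-like cells.

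**Figure D5:**
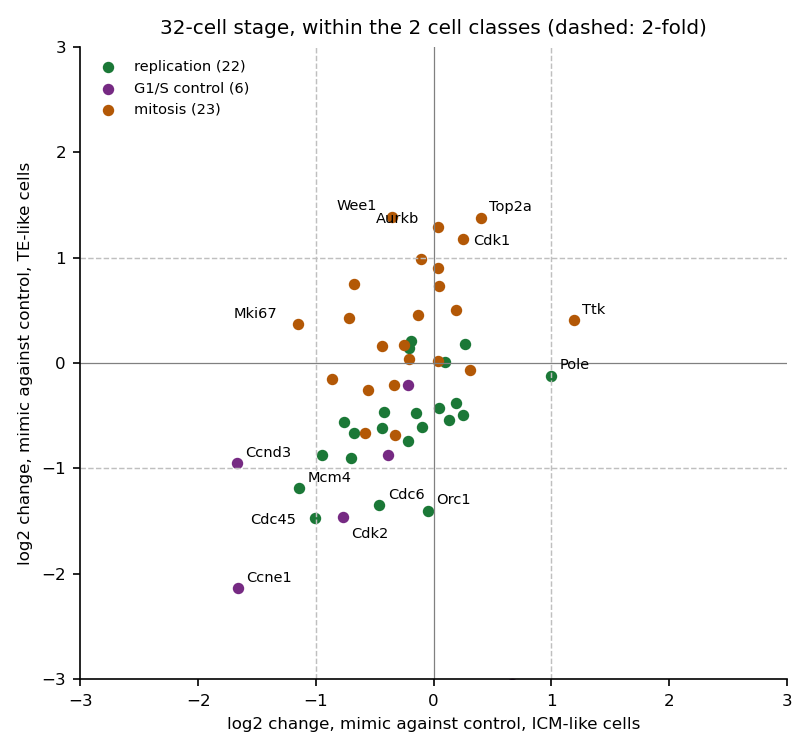
Log2 change of mimic against control 32-cell cells within the ICM-like class (horizontal) and the TE-like class (vertical), coloured by list; dashed lines mark the 2-fold limit. Mcm4, Cdc45 and Ccne1 lie past the limit at the lower left, and Top2a, Cdk1, Aurkb and Wee1 lie above it for TE-like cells.

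Sites for miR-381-3p in the annotated 3' UTRs were read from the genome's GENCODE annotation. The word CTTGTATA, an 8mer site that pairs with the seed and has an A opposite base 1, was found in 5 of the 60 genes (8.33%) and in 3.09% of 21153 genes with a 3' UTR. With the 7-base words CTTGTAT and TTGTATA as well, 19 of the 60 (31.7%) and 21.5% of all genes had a site. The 8mer sites all lie in mitosis genes, and each is shown with up to 11 bases to either side and the site in capitals, on the strand of the gene and with the position of the site in GRCm38.

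Ccnb1, chr13:100779144-100779151, minus strand: aagggtgtattCTTGTATAtcctgtataga

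Cdk1, chr10:69338417-69338424, minus strand: tctcttcctgtCTTGTATAgttttctttgt

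Wee1, chr7:110142587-110142594, plus strand: tgtgaattacaCTTGTATAtccaactggga

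Kif11, chr19:37420643-37420650, plus strand: taagtatttttCTTGTATAtaattaaatac

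Kif11, chr19:37421150-37421157, plus strand: aaactttattcCTTGTATAtaataaaaatg

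Kif20b, chr19:34975643-34975650, plus strand: tctaaaatttaCTTGTATAtatatatatat

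Kif20b, chr19:34975697-34975704, plus strand: tagattggtatCTTGTATAtaattttaatt

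None of these 5 genes was past the fold in mimic against control cells at either stage, where 7.84% of all genes with an 8mer were higher and 5.49% lower at the 8-cell stage and 6.96% and 7.33% at the 32-cell stage. At the 8-cell stage Ccnb1 had a log2 change of -0.31, Cdk1 of -0.39, Wee1 of -0.42, Kif20b of -0.43 and Kif11, with an 8mer at 2 places, of 0.21, a median of -0.39, beside -0.29 over 38 genes of the set without a site. At the 32-cell stage the median of the 5 was -0.06, with Cdk1 at 0.58, beside -0.26 over 36 genes without a site. Over all genes at 20 CPM, those with an 8mer had medians of 0.08 (255 genes) at the 8-cell and -0.01 (273 genes) at the 32-cell stage, and those without a site 0.03 at both.

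Genes with 7-base sites alone were Orc1, Rrm1, Rrm2, Ccnd2, Ccne2, Cdk6, Cdkn1b, Ccna2, Ccnb2, Cdc25b, Plk1, Mad2l1, Tpx2 and Ube2c. Of those at 20 CPM, 2 of 11 were lower past the fold at the 32-cell stage, Ccne2 and Cdkn1b, where 5.53% of all 1627 genes with 7-base sites alone were. At the 8-cell stage 0 of 12 were lower, where 5.58% of all 1488 such genes were, and Ccne2 and Cdk6 were higher, where 7.53% were. Among the 7 genes lower in 32-cell mimic cells, Ccne1, Ccnd3, Cdk2, Mcm4 and Cdc45 had no site of these 3 words. A match is a description of letters and does not show that the microRNA acts there.

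Between the cells of a group, the genes of a list varied together only weakly. With each cell thinned to 522178 counts, the median Spearman correlation over pairs of mitosis genes was 0.04 in both 8-cell groups, 0.06 in 32-cell control cells and 0.11 in 32-cell mimic cells, beside 0.00 to 0.02 over all pairs of genes at 20 CPM. Replication genes had 0.02 to 0.04. These values are over 24 to 39 cells of a group, which share embryos, and sampling of few molecules lowers them. The strongest pairs were mitosis genes in 32-cell control cells, with 0.69 for Top2a and Ccnb1 and 0.65 for Cdk1 and Ccnb1, and Kif11 and Ccnb1 in 8-cell mimic cells, with 0.67. In 32-cell mimic cells the strongest was 0.58, for Ube2c and Ccnb2.

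A wider list of 137 other genes of the same 3 roles was counted beside the 60. Between the stages 24 of 121 of them were higher and 21 lower past the fold in control embryos (19.8% and 17.4%, beside 30% and 20.1% of all genes), and 22 and 18 of 121 in mimic embryos (18.2% and 14.9%, beside 29.1% and 18.8%). Mimic against control cells had 6 higher and 6 lower at the 8-cell stage (5.13% each of those at 20 CPM, beside 6.96% and 6.09% of all genes) and 5 higher and 0 lower of 121 at the 32-cell stage (4.13% and 0%, beside 6.87% and 5.36%). Zwint, a kinetochore protein, had 88.39 CPM in 8-cell and 483.9 CPM in 32-cell control cells (2.44), and 107.7 and 452.6 CPM in mimic cells (2.06). Espl1, separase, which cuts cohesin at anaphase, was lower at the 32-cell stage under both treatments (-1.91 and -2.28), as was the checkpoint kinase gene Chek2 (-1.87 and -2.20). In 32-cell embryos the largest difference was that of Cdkn1a, the CDK inhibitor p21, with 137.6 CPM in control cells against 420.1 CPM with the mimic (1.60). It was higher where Cdkn1b was lower. Foxm1, an activator of late cell cycle genes, had 26.89 and 13.79 CPM (-0.92).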

How the data were processed

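Smart-seq2 libraries of 132 single cells were analysed. The authors aligned reads to mm10 (GRCm38) with STAR (version 2.5.1b) and quantified them with RSEM (version 1.3.0), per the labels and the study's methods. The authors deposited expected counts, which had not been scaled and were all whole numbers. The study's filter (at least 3000 genes, under 10% mitochondrial counts) removed 0 cells, and no pair of cells was identical. Counts of 13 mitochondrial genes were left out, and counts were summed over the cells of a group and scaled to CPM. Expected counts split reads between similar genes, so levels of close paralogues are estimates.

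The members and all lists were chosen with earlier results of these data known. Groups came from the stage and treatment labels. Each group counted as 1 sample, so no p-value was computed. Intervals are exact Poisson for levels and Clopper-Pearson for shares of cells (95%). In each comparison the 8 members with the largest rise and the 8 with the largest fall at 20 CPM were given with their values, and of the other cell cycle genes up to 3 each way. Cells were clustered with Seurat (version 5.3.0; R version 4.3.3; 2000 variable genes, 25 components, resolution 0.6) without cell cycle genes, and doublets were not called, since cells were picked by hand. Python (version 3.11.15), numpy, pandas and scipy did the rest. A trial of the pooled comparison on simulated counts held Poisson error alone, so it does not bear on spread between cells, runs or embryos. Gene positions and exon lengths were taken from GENCODE M21 and promoters and the microRNA from RefSeq (GRCm38.p6). Alternatives were other scalings, pseudocounts and filters, thinning, and subsets of cells.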

Additional observations from a re-analysis of the deposited data

Results flagged for a closer look

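Ccne2, cyclin E2, was picked out because its difference between mimic and control cells went opposite ways at the 2 stages: its log2 change was 1.04 at the 8-cell stage (20.88 CPM in control against 43.93 CPM in mimic cells) and -1.14 at the 32-cell stage (72.06 and 32.25 CPM). The difference between the stages was not tested, since each group is 1 sample, and the stages also differ in dose (10 µM at the 8-cell and 5 µM at the 32-cell stage). Cells of both groups overlapped at both stages, and in 32-cell mimic cells its level differed between runs of title numbers, with 7.27, 91.02 and 0.505 CPM.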

How the results depend on the processing

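Each group is 1 sample, and counting intervals do not cover the spread between embryos. No paired analysis was possible because the labels do not give the embryo of a cell. Between the stages, the number of genes past the fold moved by over 1.5 times only with a 1.5-fold limit, to 19 higher in control and 15 higher in mimic embryos. Leaving out each run of title numbers in turn, the numbers ran from 10 to 16 higher and 13 to 17 lower in control embryos and from 6 to 8 higher and 11 to 14 lower in mimic embryos. For mimic against control cells at the 8-cell stage they ran from 3 to 8 higher and 2 to 5 lower, the larger numbers from a comparison with 2 control cells, and at the 32-cell stage from 0 to 2 higher and 2 to 10 lower.

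At the 8-cell stage, a filter at 5 CPM or none gave 5 higher. A 1.5-fold limit gave 8 lower, and cells with more Xist or with more Y-linked counts alone gave 1 and 18 lower. At the 32-cell stage, a filter at 5 CPM or none gave 2 higher, Ccnd2 and Cdc25b, a 1.5-fold limit gave 2 higher and 15 lower, ICM-like cells alone gave 2 higher, and TE-like cells alone gave 4 higher by cluster and 5 by marker score. The cause was not tested. Scaling by the median of ratios moved no group by more than 0.018 on the log2 scale.

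Of the 56 changes past the fold, 51 kept their direction and 28 stayed 2-fold or more under every alternative. Orc1 between the stages in mimic embryos turned to 0.13 with 8-cell cells of more Y-linked counts. At the 8-cell stage, leaving out runs of control cells moved Ccne2 from -0.15 to 1.20 and Mki67 from -1.16 to 0.78. At the 32-cell stage Ccne2 turned to 0.67 (by cluster) and 0.41 (by marker score) in ICM-like cells, and Cdkn1b to 0.43 and 0.53 in TE-like cells. Genes under 20 CPM rest on few cells, which limits what their levels show.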
